A study of Homo sapiens with 6 samples.

Results

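ATF4 and 9 genes that accompany it in the cellular stress response were followed in HEC-1-A, an established human line of endometrial adenocarcinoma, with and without SMIP34. This compound inhibits PELP1, a coregulator of nuclear receptors that also takes part in ribosome biogenesis. The 10 genes were ATF4, DDIT3, TRIB3, CHAC1, ATF5, CEBPB, CEBPG, NUPR1, VLDLR and STC2, out of 23228 genes in the deposited tables. They were chosen by name because measured values of the same comparison had shown many of them lower under SMIP34, so the change of these 10 genes between the groups is given as a description, without a test. RNA was sequenced from 3 control libraries and from 3 libraries of cells given 20 µM SMIP34 for 24 h. Both groups grew in McCoy's 5A medium with serum. The study states that controls received vehicle, whereas their labels name only the medium. HEC-1-A is a single line, and the labels do not say whether replicates were separate cultures, so that p-values here measure only the spread between these libraries, which may be technical.

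In the integrated stress response, kinases that sense unfolded protein, lack of amino acids, viral RNA or haem deficiency phosphorylate the translation initiation factor eIF2. General protein synthesis then slows, while the mRNA of the transcription factor ATF4 is translated more efficiently, and ATF4 activates genes for amino acid supply, redox balance and cell death, among them DDIT3 (which encodes CHOP), TRIB3 and CHAC1. Because ATF4 is controlled largely at translation, its mRNA level and its protein level need not move together, and only mRNA was measured here.

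Counts on genes came to between 19562711 and 22014835 per library, and 13408 genes had enough counts for testing. All 11 epithelial markers lay above 1 CPM (reads relative to the library total, scaled by TMM factors), and their summed level was 6006 to 6218 CPM in control and 5930 to 6046 CPM in SMIP34-treated cells. Of the 7 stromal markers 2 exceeded 1 CPM, with sums of 7.47 to 8.18 CPM in control and 7.63 to 8.34 CPM with SMIP34, and LUM was at 0. None of the 4 endothelial markers and 1 of the 6 immune markers (CD68) exceeded 1 CPM. The summed endothelial level was 0.322 to 0.876 CPM in control and 0.137 to 0.277 CPM with SMIP34, the summed immune level was 0.866 to 1.55 CPM and 1.16 to 2.23 CPM, and CD3E was at 0. The median log2 fold change of all genes tested was -0.0022, but it ran from -0.10 in the 1341 genes with the shortest exon length (43 to 1206 bases) to 0.12 in the 1341 with the longest (6891 to 61281 bases).

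All 10 members had a mean CPM below control after SMIP34, with log2 fold changes from -1.18 to -0.064 and a median of -0.34. For 9 of the 10 the highest SMIP34 library lay below the lowest control library, VLDLR being the exception. Across all genes tested, 21.9% showed this separation toward lower values and 22.6% toward higher values. Since the same comparison chose the genes, nothing is read from that difference. Together the 10 genes took up 1161, 1165 and 1161 CPM in the control libraries and 914, 911 and 908 CPM in the SMIP34 libraries. In bulk RNA, fewer cells expressing a gene and less RNA per cell cannot be told apart.

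**Figure D1:**
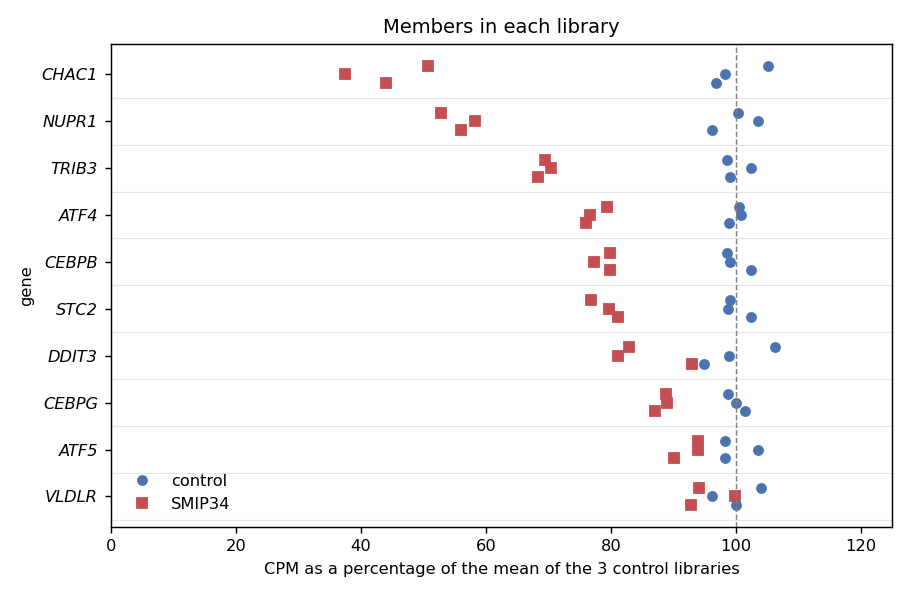
CPM of each member in each library, as a percentage of the mean of the 3 control libraries for that gene (circles, control; squares, SMIP34). The SMIP34 libraries lie between 37.4 and 50.8% for CHAC1 at the top and reach 99.8% for VLDLR at the bottom, the only gene whose groups overlap.

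ATF4, the transcription factor at the centre of the response, is encoded at chr22:39916569-39918691 (hg19, plus strand, 2 exon intervals). It was measured at 384, 385 and 378 CPM in control and at 304, 293 and 291 CPM in SMIP34-treated cells. The groups were far apart relative to their spread, at 382 ± 3.85 and 296 ± 6.93 CPM (mean ± SD, n = 3 each). The log2 fold change was -0.37 ± 0.027 (SE), which ranked 742 among the 13408 genes, counted from the lowest. ATF4 counts were not whole numbers in 2 libraries, which shows that some of its reads were divided, so its count carries that uncertainty. The exons of ATF4 overlapped those of no other gene. Among the other members, CEBPB and VLDLR had such counts in 1 library each.

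CHAC1, an enzyme that degrades glutathione, had the lowest SMIP34 level relative to control. Its gene lies at chr15:41245636-41248717 (hg19, plus strand, 3 exon intervals). CHAC1 stood at 15.5, 14.4 and 14.2 CPM in control and at 7.47, 5.50 and 6.47 CPM with SMIP34. No SMIP34 library came near a control library. The means were 14.7 ± 0.650 and 6.48 ± 0.986 CPM (SD, n = 3 each), which is 0.442 of the control level, and the log2 fold change was -1.18 ± 0.10. These values rest on 296 to 314 reads per control library and 119 to 164 reads per SMIP34 library. They are the smallest counts among the members.

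TRIB3, a pseudokinase that is induced by ATF4 and CHOP and acts back on ATF4, lies at chr20:361308-378203 (hg19, plus strand, 4 exon intervals). It was measured at 191, 199 and 192 CPM in control and at 135, 137 and 133 CPM with SMIP34. The 3 SMIP34 libraries differed by less than 4 CPM and lay 54.7 CPM below the lowest control library. The log2 fold change was -0.53 ± 0.031, and the mean level was 0.694 of control. TRIB3 had 2871 to 4321 reads per library, many more than CHAC1.

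Motifs for ATF4 and related factors were searched in the 250 bases before each RefSeq start site (GRCh38.p14), on both strands. Of the 10 members, 9 were found in that table, with 17 start sites between them. NUPR1 was not found there. The composite C/EBP-ATF element TGATGNAA, which ATF4 binds together with a C/EBP partner, occurred before CHAC1, from 209 to 202 bases upstream on the minus strand, and before the more downstream of 2 start sites of CEBPG, from 42 to 35 bases upstream on the plus strand. That is 2 of 9 members (22.2%) and 2 of their 17 start sites. Of the whole table, 3.89% of the 27305 genes and 3.14% of the 35116 start sites have such a match. Neither TGACGNAA nor the palindromic cyclic AMP element TGACGTCA was found before a member (1.43% and 1.65% of all start sites). A match is a string of letters and not a binding site shown by measurement, and the elements of a gene may also lie outside this window. The sequences below show CHAC1 with its match, TRIB3 as a member with a log2 fold change under -0.5 and no match, and the 60 bases around the CEBPG match. They are written 5′ to 3′ along the strand of the gene, with the motif in capitals.
CHAC1, chr15:40953221-40953470, plus strand: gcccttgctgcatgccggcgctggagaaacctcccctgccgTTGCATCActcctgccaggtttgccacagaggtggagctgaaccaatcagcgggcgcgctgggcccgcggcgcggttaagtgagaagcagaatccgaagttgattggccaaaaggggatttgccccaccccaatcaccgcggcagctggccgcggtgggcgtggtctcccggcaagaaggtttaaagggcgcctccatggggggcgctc
TRIB3, chr20:381045-381294, plus strand: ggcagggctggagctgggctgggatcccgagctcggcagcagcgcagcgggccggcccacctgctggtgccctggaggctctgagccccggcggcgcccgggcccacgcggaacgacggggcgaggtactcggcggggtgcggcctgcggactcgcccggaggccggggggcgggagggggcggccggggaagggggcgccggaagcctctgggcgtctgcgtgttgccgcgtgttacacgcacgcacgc
CEBPG, chr19:33374045-33374104, plus strand: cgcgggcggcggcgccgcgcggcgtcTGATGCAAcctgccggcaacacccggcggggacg

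Of the further transcription factors CEBPB, DDIT3, CEBPG and ATF5, CEBPB differed about as much as ATF4 (-0.37 ± 0.027) and the others less. CEBPB, a C/EBP factor (chr20:48807376-48809212, hg19), was at 77.8, 78.2 and 80.8 CPM in control and at 63.0, 61.0 and 63.0 CPM with SMIP34, a log2 fold change of -0.34 ± 0.039. DDIT3, the gene of the pro-apoptotic factor CHOP (chr12:57910371-57914300, hg19), was at 42.2, 39.3 and 37.7 CPM in control and at 32.9, 32.2 and 36.9 CPM with SMIP34, a log2 fold change of -0.22 ± 0.057. Its groups were separated by only 0.789 CPM, because SMIP34 replicate 3 came close to control replicate 3, and without that SMIP34 library the log2 fold change was -0.28. DDIT3 is among the shortest genes (1178 bases of exon), whose median was -0.10. With offsets for gene length its value was -0.15. Its exons overlap those of MARS on the opposite strand. Reads were counted by strand.

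CEBPG, a dimer partner of ATF4 (chr19:33864609-33873592, hg19), was at 89.7, 90.9 and 92.2 CPM in control and at 80.8, 80.9 and 79.1 CPM with SMIP34. The difference was small, at -0.18 ± 0.036 on the log2 scale, but each group spanned less than 3 CPM. ATF5, a factor related to ATF4 (chr19:50431959-50437193, hg19), was at 43.3, 45.6 and 43.3 CPM in control and at 41.4, 41.3 and 39.7 CPM with SMIP34. Its log2 fold change of -0.11 ± 0.048 was the second smallest among the members, and the groups lay 1.88 CPM apart. The exons of ATF5 also overlap MIR4751 on the same strand and IL4I1 and NUP62 on the other. Its counts were whole numbers in every library, so they show no sign of divided reads.

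Among the remaining members, NUPR1, a small chromatin-associated stress protein (chr16:28548662-28550495, hg19), came next to CHAC1. It was at 17.1, 17.6 and 16.4 CPM in control and at 8.98, 9.89 and 9.52 CPM with SMIP34, from 197 to 383 reads per library. The SMIP34 mean was 0.556 of control, and the log2 fold change was -0.85 ± 0.084. NUPR1 is also a short gene, with 912 bases of exon. STC2, a secreted glycoprotein (chr5:172741726-172756506, hg19), was at 241, 240.2 and 249 CPM in control and at 187, 194 and 197 CPM with SMIP34, a log2 fold change of -0.34 ± 0.030. VLDLR, a lipoprotein receptor (chr9:2621793-2654485, hg19), was at 59.2, 54.7 and 56.9 CPM in control and at 53.5, 56.8 and 52.8 CPM with SMIP34. Its groups overlapped, and its log2 fold change of -0.064 ± 0.045 ranged from -0.096 to -0.035 when single libraries were left out, the smaller size being reached without control replicate 1.

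Levels of different genes were compared per exon length, as RPKM. In control cells ATF4 was the most abundant member at 189 ± 1.91 RPKM (mean ± SD, n = 3), above 97.2% of the genes tested. TRIB3 followed at 79.2 ± 1.64, STC2 at 45.6 ± 0.938, CEBPB at 43.0 ± 0.878, DDIT3 at 33.8 ± 1.94 and CEBPG at 24.3 ± 0.329 RPKM. The next were NUPR1 at 18.6 ± 0.689 and ATF5 at 18.5 ± 0.562 RPKM, whose ranges over the libraries overlapped and which therefore have no order. VLDLR stood at 15.7 ± 0.620 RPKM and CHAC1 at 9.43 ± 0.417 RPKM, near the middle of the genes tested (above 49.4% of them). All other neighbours in this order were separated in all 3 libraries. In SMIP34-treated cells the first 6 genes and the last kept their places, at 146 ± 3.43 RPKM for ATF4 and 4.16 ± 0.632 RPKM for CHAC1. NUPR1, at 10.4 ± 0.506 RPKM, was then below ATF5 (17.2 ± 0.413) and VLDLR (15.0 ± 0.585).

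**Figure D2:**
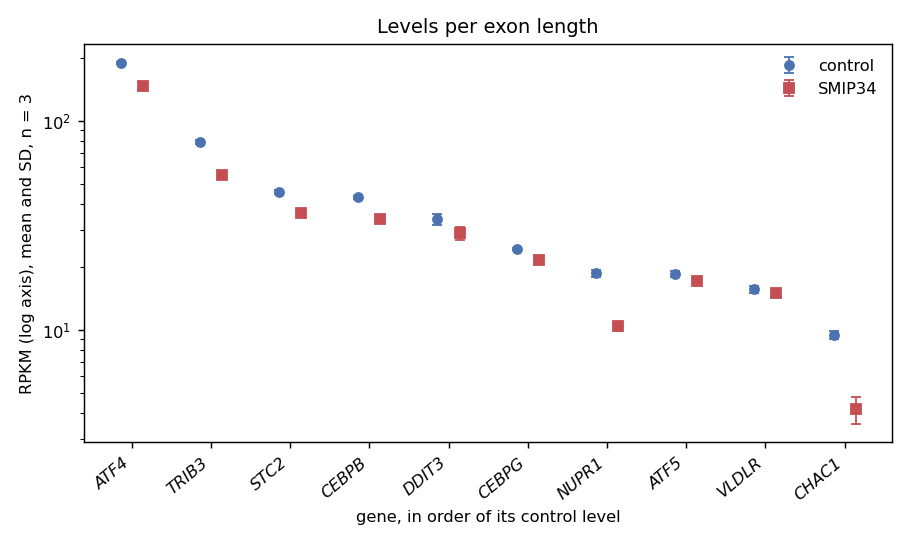
RPKM of each member on a log axis, as the mean and SD of 3 control libraries (circles) and 3 SMIP34 libraries (squares), in order of the control level. ATF4 is highest at 189 RPKM in control and 146 RPKM with SMIP34, and NUPR1 changes places with ATF5 and VLDLR.

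Further ATF4 target genes outside the members were counted from a list of 44 genes, of which 43 had enough counts. By edgeR's quasi-likelihood test with Benjamini-Hochberg adjustment over all genes (adjusted p under 0.05), 29 of the 43 fell, 7 rose and 7 did not pass, with a median log2 fold change of -0.16. Over all genes tested, 17.2% were called lower and 17.4% higher. Past an absolute log2 fold change of 0.5, 5 of the targets were called lower and 2 higher, against 1.87% and 1.44% of all genes. The largest decrease belonged to ADM2, a secreted peptide of the calcitonin family, with 20.1, 20.3 and 20.4 CPM in control and 11.7, 11.2 and 12.4 CPM with SMIP34 (log2 fold change -0.79 ± 0.075, edgeR adjusted p = 7.44e-09).

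Counts are given by function, in groups set after the values were seen and not tested against each other. Beside them stand the shares of all genes tested, 17.2% lower and 17.4% higher. Of the 8 amino acid transporters, 7 fell and 1 rose, with a median of -0.42. SLC7A11, the cystine transporter that feeds glutathione synthesis, went from 75.5, 73.3 and 81.8 CPM to 48.5, 48.9 and 48.7 CPM (-0.66 ± 0.044, edgeR adjusted p = 7.84e-12). SLC7A5, the leucine transporter, went from 197, 204 and 209 CPM to 134, 133 and 135 CPM (-0.60 ± 0.031, edgeR adjusted p = 3.38e-14), and neither transporter had overlapping groups. SLC3A2, which pairs with both of them, was the transporter that rose (0.092 ± 0.028, edgeR adjusted p = 0.0123). Of the 10 tested genes of amino acid and one-carbon synthesis, 8 fell and 2 did not pass (median -0.33). PHGDH, the first enzyme of serine synthesis, was the target left untested, with 1, 0 and 3 reads in control and 0 in each SMIP34 library. Of the 12 tRNA synthetases, 9 fell, 1 rose and 2 did not pass (median -0.15). The 13 remaining targets were split, with 5 lower, 5 higher and a median of -0.037.

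**Figure D3:**
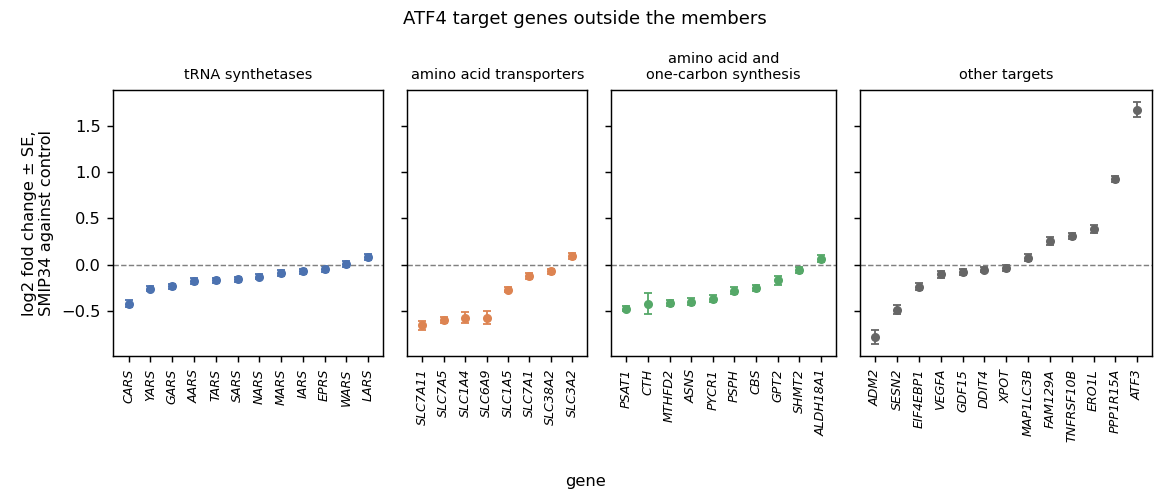
Log2 fold change (SMIP34 against control) with its SE from 3 against 3 libraries for the 43 tested ATF4 target genes outside the members, in 4 functional groups and sorted within each. Most transporters, synthesis genes and synthetases lie below 0, and the remaining targets run from -0.79 for ADM2 to 1.68 for ATF3.

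The targets that rose most were ATF3, PPP1R15A and ERO1L. ATF3, a bZIP factor of the early stress response, went from 7.26, 7.45 and 8.76 CPM in control to 24.2, 26.5 and 24.5 CPM with SMIP34 (1.68 ± 0.084, edgeR adjusted p = 1.45e-14). PPP1R15A, the GADD34 subunit that directs dephosphorylation of eIF2, went from 131, 132 and 131 CPM to 246, 246 and 257 CPM (0.93 ± 0.030, edgeR adjusted p = 1.56e-18). In the same libraries ATF4 and TRIB3 lay below control. ERO1L, an oxidase of the endoplasmic reticulum (ER), rose by 0.38 ± 0.042 (edgeR adjusted p = 7.65e-08).

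Genes that act before ATF4 were counted next. Of 19 eIF2 kinases, eIF2 and eIF2B subunits and regulators, 8 rose, 4 fell and 7 did not pass, and the median log2 fold change was 0.053. The share that fell, 21.1%, is near the 17.2% of all genes, and the share that rose was 42.1% against 17.4%. Of the 4 kinases, EIF2AK3, the ER sensor PERK, rose from 18.3, 17.5 and 18.5 CPM to 22.8, 21.9 and 24.6 CPM (0.36 ± 0.068, edgeR adjusted p = 0.000196). EIF2AK2, the double-stranded RNA sensor PKR, also rose (0.29 ± 0.049, edgeR adjusted p = 4.2e-05), as did EIF2AK4, the amino acid sensor GCN2 (0.20 ± 0.037, edgeR adjusted p = 0.000131). The haem-regulated kinase EIF2AK1 was at -0.051 ± 0.028 (edgeR adjusted p = 0.164). These are mRNA levels, and kinase activity was not measured. DNAJC3, an ER co-chaperone known to inhibit PERK and PKR, rose by 0.30 ± 0.048 (edgeR adjusted p = 2.14e-05). The largest decreases were KIAA0141 (DELE1), which relays mitochondrial stress to EIF2AK1, at -0.30 ± 0.045 (edgeR adjusted p = 6.81e-06), the eIF2 beta subunit EIF2S2 at -0.19 ± 0.030 (edgeR adjusted p = 2.4e-05) and IMPACT, an inhibitor of GCN2, at -0.17 ± 0.049 (edgeR adjusted p = 0.00797). The call of IMPACT was lost without control replicate 1 (-0.12) or SMIP34 replicate 2 (-0.15).

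ER chaperones and ER stress genes, which answer to the ATF6 and XBP1 arms of the unfolded protein response, were mostly higher. Of 22 tested, 14 rose, 2 fell and 6 did not pass, with a median of 0.17. The share that rose was 63.6%, against 17.4% of all genes, and the share that fell was 9.09%, against 17.2%. HSPA5, the major ER chaperone BiP, went from 474, 484 and 473 CPM to 687, 682 and 684 CPM (0.52 ± 0.025, edgeR adjusted p = 5.88e-15), the only one of the 22 past 0.5. With offsets for gene length HSPA5 was at 0.498. DNAJB9 (0.47 ± 0.069, edgeR adjusted p = 7.15e-06) and HYOU1 (0.35 ± 0.032, edgeR adjusted p = 3.51e-09), further ER chaperones, followed. XBP1, the transcription factor of its arm, fell from 105, 111 and 101 CPM to 92.7, 89.9 and 90.6 CPM (-0.22 ± 0.037, edgeR adjusted p = 5.71e-05). HERPUD1, of ER-associated degradation, fell by 0.14 ± 0.040 on the log2 scale (edgeR adjusted p = 0.00999). This call was lost without control replicate 1, without SMIP34 replicate 2 or with offsets for gene length (-0.093). SEC61B, the third lowest, was at -0.065 ± 0.037 (edgeR adjusted p = 0.176), and at 0.058 with offsets for gene length.

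Of 27 other bZIP genes tested, the family to which ATF4, ATF5, DDIT3, CEBPB and CEBPG belong, 10 rose, 2 fell and 15 did not pass, with a median of 0.033. That is 37.0% higher and 7.41% lower, against 17.4% and 17.2% of all genes tested. The largest increases were in AP-1 genes, FOSB from 1.75, 1.75 and 2.21 CPM to 17.8, 15.0 and 16.0 CPM (3.09 ± 0.13, edgeR adjusted p = 5.55e-16), JUN (1.37 ± 0.044, edgeR adjusted p = 1.56e-18) and FOS (1.15 ± 0.11, edgeR adjusted p = 8.39e-09). JDP2, an AP-1 repressor, fell (-0.30 ± 0.045, edgeR adjusted p = 8.7e-06). ATF6B was lower on average at -0.43 ± 0.19, but its libraries ranged from 20.7 to 37.9 CPM in control and from 14.3 to 36.2 CPM with SMIP34, and the test did not pass (edgeR adjusted p = 0.084). HLF, near 1 CPM, was at -0.27 ± 0.29 (edgeR adjusted p = 0.509). CEBPD and CEBPA, the other C/EBP genes tested, were at -0.0031 ± 0.061 and 0.033 ± 0.10, and neither passed (edgeR adjusted p = 0.974 and 0.841). They were named beside CEBPB and CEBPG after their values were seen.

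**Figure D4:**
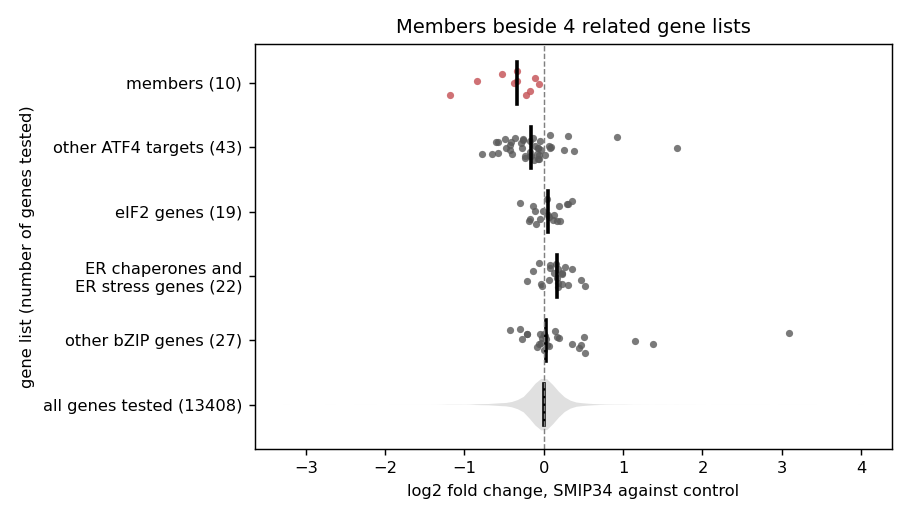
Log2 fold change (SMIP34 against control) of every tested gene in the members and 4 related lists, with points jittered vertically and a black bar at each median, beside the distribution of all 13408 genes tested. The medians are -0.34 for the members, -0.16 for other ATF4 targets, 0.053 for eIF2 genes, 0.17 for ER genes, 0.033 for other bZIP genes and -0.0022 for all genes.

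Close relatives of individual members were also measured. TRIB1 and TRIB2, pseudokinases related to TRIB3, fell, TRIB1 from 44.8, 49.4 and 45.3 CPM to 31.4, 34.5 and 37.6 CPM (-0.43 ± 0.058, edgeR adjusted p = 1.67e-06) and TRIB2 by 0.18 ± 0.042 on the log2 scale (edgeR adjusted p = 0.00196). CHAC2, related to CHAC1, was at 10.8, 9.84 and 10.1 CPM in control and at 9.30, 9.29 and 10.9 CPM with SMIP34, with overlapping groups (-0.056 ± 0.098, edgeR adjusted p = 0.701). With offsets for gene length its value was 0.016. LRP8, a lipoprotein receptor related to VLDLR, rose by 0.17 ± 0.061 (edgeR adjusted p = 0.0342). The call of LRP8 was lost in DESeq2, with offsets for gene length (0.089) and without control replicate 1 or SMIP34 replicate 1 or 2. STC1, related to STC2, had at most 2 reads in a library and was not tested. NUPR1L was not analysed here.

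Genes whose pattern over the 6 libraries was most like that of a member were found by the root mean square difference of centred log2 CPM, as a description. For ATF4 they were PADI2 (0.0220), SIRPA (0.0226) and PGLS (0.0237). For TRIB3 they were S100A1 (0.0196), ACSL1 (0.0246) and PCK2 (0.0264). For CHAC1 the closest genes were much farther away, at 0.132 for EMILIN1, 0.146 for KRT13 and 0.162 for PGM5. The reason was not tested.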

How the data were processed

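RNA of 6 HEC-1-A libraries, 3 control and 3 treated with SMIP34, was grouped by the labels. The authors deposited estimated counts per gene, which include fractions of reads and were not normalized. Per the file headers, featureCounts v1.5.0-p1 assigned reads by strand to exons of UCSC hg19 genes at a minimum mapping quality of 2, and divided reads with several positions or several genes. The submitters' processing notes name HISAT2, whereas the study's methods name tophat2 and HTSeq. Splitting makes genes that share sequence or exons uncertain. The labels name kits of 2 makers for library preparation without assigning them.

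Counts were rounded to whole numbers, filtered with filterByExpr (13408 genes kept), scaled by TMM (factors 0.988 to 1.01) and tested in R 4.3.3 with edgeR 4.0.16 (quasi-likelihood F test, legacy = FALSE). Benjamini-Hochberg adjustment covered every gene tested. A gene was called at an adjusted p under 0.05. CPM and RPKM (per kilobase of the exon length in the tables) use the TMM factors. SE derive from the F statistic. Replicates of a group had a chi-square per gene of 1.89 to 3.26, against 8.75 to 13.2 between groups. No library was therefore an identical copy of another, but these values cannot show whether replicates were separate cultures. The procedure was tested on simulated data in which all genes shared the same dispersion (a measure of spread between replicates). That is a simpler case than the real libraries.

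The members and gene lists were chosen with earlier results of these data known. The lists came from general knowledge of each pathway, and the division of ATF4 targets by function was made after the values were seen. Genes named were the members and their paralogs, the 3 largest and 3 smallest log2 fold changes in each list (mean CPM of 1 or more), the 3 genes most like ATF4, TRIB3 and CHAC1, and a few others that complete a group, chosen after their values were seen (SLC3A2, EIF2AK1, EIF2AK4, PHGDH, CEBPA and CEBPD). Not every gene that this rule names is reported here. Alternatives were DESeq2 1.42.0, limma 3.58.1 (voom), library size scaling, 2 other low-count filters, the legacy form of the edgeR test, a smaller prior count, the replicate number as a block, loess offsets on exon length (span 0.3), and leaving out each library. Promoter sequences are those of RefSeq (GRCh38.p14). Figures were drawn with matplotlib 3.10.9.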

Additional observations from a re-analysis of the deposited data

How the results depend on the processing

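Under the 14 alternatives, and for the members a smaller prior count, 2 values changed direction. Both did so with offsets for gene length, and neither was past the threshold in either fit (SEC61B to 0.058 and CHAC2 to 0.016). Of 780 recomputed values, 737 were rated the same. A median, or the log2 fold change of a member, was so rated if it kept its direction and moved by less than the replicate spread. The log2 fold change of any other gene was so rated if it kept its direction and its side of the threshold. Counts of genes called had a wider limit. The 1767 genes called lower by DESeq2, against 2306, were still rated the same. All 10 members stayed below 0 throughout. With library size only, the medians were -0.32 for the members, -0.14 for the other ATF4 targets, 0.072 for the eIF2 genes, 0.19 for the ER genes and 0.052 for the other bZIP genes. With offsets for gene length, they were -0.30 for the members, 0.097 for the eIF2 genes and 0.065 for the other bZIP genes, 1 ER gene and 4 other bZIP genes were called lower, and ATF4 stood at -0.32, DDIT3 at -0.15, TRIB3 at -0.49, CEBPB at -0.28 and NUPR1 at -0.75. Leaving out 1 library gave medians of -0.35 to -0.32 for the members, -0.18 to -0.14 for the other targets, 0.039 to 0.065 for the eIF2 genes, 0.15 to 0.18 for the ER genes and 0.013 to 0.047 for the other bZIP genes, where the smallest was without SMIP34 replicate 2, and between 1 and 2 ER genes called lower. ATF6B passed without control replicate 2 (-0.67), without SMIP34 replicate 2 (-0.87) and with length offsets (-0.54). The cause was not tested. Libraries sharing a replicate number had deviations correlated at -0.028, 0.033 and -0.011, and were not treated as pairs. With the replicate block 26 other targets were called lower, 6 were called higher and the median of the members was -0.34. The fewest other targets called lower, 24, came with library size only, without control replicate 3 and without SMIP34 replicate 3. Among the 10 members, CHAC1 and NUPR1 have the fewest reads and the largest SE.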
